A study of Mus musculus with 6 samples.

Results

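Keratin genes were examined in whole uterine horns of mice made to express SF-1, the nuclear receptor encoded by Nr5a1. Members were all genes with a probe set annotated to exactly 1 symbol of the form Krt followed by a number and at most 1 letter, which leaves out the keratin-associated proteins. This gave 48 of the 18193 genes measured, and each was read on whichever of its probe sets was brightest on average across the 6 arrays. All 48 were still current symbols by gene ID. Of the 54 keratin genes in the RefSeq table of GRCm38.p6, the other 6 (Krt9, Krt39, Krt40, Krt74, Krt87 and Krt90) were not analysed here.

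Control uteri had the genotype SF1LsL/+, and SF-1 uteri had the genotype Pgrcre/+ SF1LsL/+, so both groups carried the SF1LsL allele and only the SF-1 group carried Cre at the Pgr locus. The strain was C57BL6J, no age was given, and the kind of surgery that preceded dissection by 2 weeks was not stated. Each group had 3 arrays, each holding RNA pooled from 2 uteri, and the cervix had been removed. Because Pgr, the progesterone receptor gene, is active in epithelium, stroma and muscle of the uterus, the Cre allele is not restricted to epithelium. SF-1, Cre and the dose of Pgr differed together between the groups and cannot be told apart.

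Keratins are the intermediate filament proteins of epithelial cells. A filament is built from pairs of 1 acidic type I keratin and 1 basic type II keratin, and the genes of each type lie together in a cluster of their own, apart from Krt18, a type I gene beside Krt8 in the type II cluster. Simple epithelia such as the lining and glands of the uterus use mainly Krt8 with Krt18 and Krt19, with Krt7 in many ducts and glands and Krt20 mostly in the gut and urothelium. Stratified squamous epithelia use Krt5 with Krt14 or Krt15 in their basal layer, Krt1 with Krt10 in the upper layers of skin, and Krt4 with Krt13 in moist linings such as the vagina. Hair keratins build the hair shaft and its root sheath.

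Array medians lay between 149.9 and 162.2 intensity units. Nr5a1 itself read between 139 and 172 in control and 151.2 to 151.5 in SF-1, and whether its probe set covers the transgene is not known here, so it does not check the labels. Pgr fell from 4797 ± 89.0 to 1893 ± 158 (SD, n = 3; log2 change -1.34, limma adjusted p = 3.23e-05). The epithelial genes Epcam and Cdh1, the muscle gene Myh11 and the estrogen receptor gene Esr1 were all bright in every array (the lowest reading was 2027, for Cdh1), whereas Trp63, the defining transcription factor of squamous basal cells, read between 125 and 141. SF-1 replicate 2 stood apart, with 68 genes more than 2-fold above every other array after 16 units were added. They hold no keratin. Nothing in the labels says whether pools were processed together. The p-values set the difference between groups against the spread between pools within a group, which may include processing. A processing difference between the groups could not be told apart from the difference in genotype.

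Simple epithelial keratins changed unequally. Of 5, Krt7 and Krt20 rose, Krt19 fell, and Krt8 and Krt18 were not called. Over all genes, 16.6% were called at a limma adjusted p under 0.05 (Benjamini-Hochberg over all 45037 probe sets), 8.45% higher and 8.11% lower. The median log2 change was 0.25 for these 5 genes and -0.05 for all genes. In whole tissue, a change in the number of epithelial cells and a change in RNA per cell cannot be told apart.

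Krt7, a type II keratin of simple ducts and glands, read 517, 460.3 and 472 intensity units in control replicates 1 to 3 and 1849.9, 1832 and 1494 in SF-1 replicates 1 to 3. All SF-1 arrays lay far above all control arrays, and the spread within either group was small beside the gap. The means were 483 ± 29.9 and 1725 ± 200.2 (SD, n = 3), or 3.48-fold higher (log2 scale 1.80 ± 0.10, SE; limma adjusted p = 1.98e-05). It ranked 151 among 18193 genes by log2 rise. Without any 1 array the log2 change lay between 1.74 and 1.90.

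Krt20, a type I keratin known from gut and urothelium, was dim. It read 61.3, 75.6 and 64.1 in control and 154, 109 and 158 in SF-1. The groups did not overlap, and SF-1 replicate 2 was the lowest of its group. The log2 change was 0.90 ± 0.14 (SE; limma adjusted p = 0.00294), with means of 67.0 ± 7.54 and 141 ± 27.0 (SD, n = 3). Its mean over the 6 arrays was below the median of all probe sets, although SF-1 replicates 1 and 3 read just above the medians of their arrays (149.9 and 155). At such signal the added 16 units make the fold an understatement.

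Krt8, the main type II keratin of simple epithelium, read 3458, 2903 and 3270.3 in control and 3763, 4384 and 3358 in SF-1. The groups overlapped, since SF-1 replicate 3 lay within the control range. The log2 change was 0.25, and its 95% interval ran from -0.01 to 0.51 (adjusted p = 0.183 in limma). Krt8's other 2 probe sets gave 0.27 and 0.25 and were not called, though on 1 of them the groups did not overlap. Krt18, its type I partner, read 3859, 3943 and 3710.3 in control and 3734, 3769 and 3382 in SF-1, again overlapping. Its log2 change was -0.08 (interval -0.26 to 0.10, limma adjusted p = 0.522). Neither interval reaches the change of Krt7, and a rise of up to 0.51 in Krt8 or a fall of down to -0.26 in Krt18 lies within them.

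Krt19, a small type I keratin of simple and ductal epithelia, read 2066, 1835 and 1925 in control and 1368, 1623 and 1549.9 in SF-1. Every SF-1 array lay below every control array. The mean fell from 1942 ± 116 to 1514 ± 131 (SD, n = 3; log2 change -0.36 ± 0.09, SE; limma adjusted p = 0.0355). This call was weak: it held in 2 of the 6 fits that left out an array and was lost without control replicate 1 or 3 or SF-1 replicate 1 or 3 (highest adjusted p = 0.114), and also after centring each array on its median (-0.31, adjusted p = 0.0552) and with 1 unit added in place of 16 (adjusted p = 0.0533).

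**Figure D1:**
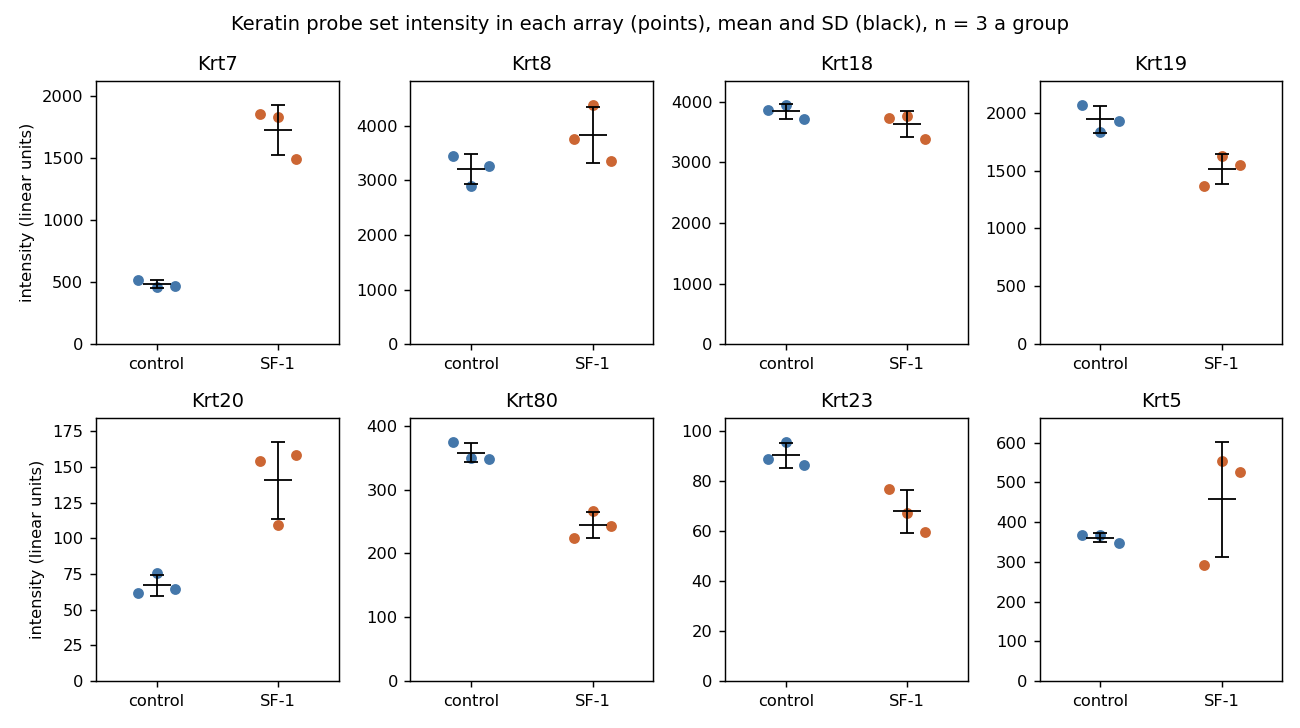
Intensity on a linear scale (vertical axis, from 0) of 8 keratin probe sets in control and SF-1 uteri. Points are arrays, ordered by replicate, and black bars are the mean and SD of 3 arrays. Krt7 moved from 483 to 1725 units with no overlap, Krt8 and Krt18 overlapped between groups, and Krt5 split the SF-1 arrays.

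The unequal change was also read within each array, as the log2 difference between a pair of genes, with 6 such differences compared. From control to SF-1, Krt7 gained 1.55 on Krt8, whereas Krt18 and Krt19 lost against Krt8, with differences of -0.33 and -0.61. In each of these 3 cases all SF-1 arrays lay outside the control range (two-sided exact permutation p = 0.1; adjusted p = 0.15). Krt20 gained 0.65 on Krt8, with 2 of 3 SF-1 arrays outside the control range (exact permutation p = 0.2, adjusted p = 0.24). Against Epcam, a surface protein gene of epithelial cells, Krt7 gained 1.42 (exact permutation p = 0.1, adjusted p = 0.15) and Krt8 differed by -0.13 (exact permutation p = 0.3, adjusted p = 0.3). The last difference turned to 0.10 when a gene's probe sets were averaged. With 3 arrays a group the test cannot go below 0.1, so no such difference could pass 0.05.

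The start regions of the called keratins present in the promoter table (Krt7, Krt20 and Krt23) are shown next to those of the Krt8 and Krt18 pair, because SF-1 and related nuclear receptors bind DNA at the core element AGGTCA. Sequences are from RefSeq (GRCm38.p6), 250 bases before to 50 after the gene's start, read 5′ to 3′ on the gene's strand, with AGGTCA in capitals. Krt7 is at chr15:101412153-101412452 (plus strand), Krt20 at chr11:99438104-99438403 (minus), Krt8 at chr15:102004293-102004592 (minus), Krt18 at chr15:102027966-102028265 (plus) and Krt23 at chr11:99493071-99493370 (minus). The table held 32 of the 48 genes, and the called Krt19 and Krt80 and the uncalled Krt15 were not among them.
Krt7: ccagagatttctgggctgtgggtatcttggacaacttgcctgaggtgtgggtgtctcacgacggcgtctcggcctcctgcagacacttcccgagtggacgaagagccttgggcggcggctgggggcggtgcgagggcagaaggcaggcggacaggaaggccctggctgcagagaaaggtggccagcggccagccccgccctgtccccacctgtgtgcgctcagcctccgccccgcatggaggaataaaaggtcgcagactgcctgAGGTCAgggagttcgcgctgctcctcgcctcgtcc
Krt20: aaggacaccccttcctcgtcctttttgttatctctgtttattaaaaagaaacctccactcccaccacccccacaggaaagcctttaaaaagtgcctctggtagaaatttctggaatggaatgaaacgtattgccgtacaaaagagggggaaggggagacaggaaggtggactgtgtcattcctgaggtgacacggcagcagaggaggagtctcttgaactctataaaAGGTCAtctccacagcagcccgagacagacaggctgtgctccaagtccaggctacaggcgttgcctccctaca
Krt8: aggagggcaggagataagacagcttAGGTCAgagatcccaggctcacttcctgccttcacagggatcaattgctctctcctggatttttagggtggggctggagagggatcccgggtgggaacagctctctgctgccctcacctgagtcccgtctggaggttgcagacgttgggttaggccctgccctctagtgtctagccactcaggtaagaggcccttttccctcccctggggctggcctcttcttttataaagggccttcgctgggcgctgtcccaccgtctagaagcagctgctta
Krt18: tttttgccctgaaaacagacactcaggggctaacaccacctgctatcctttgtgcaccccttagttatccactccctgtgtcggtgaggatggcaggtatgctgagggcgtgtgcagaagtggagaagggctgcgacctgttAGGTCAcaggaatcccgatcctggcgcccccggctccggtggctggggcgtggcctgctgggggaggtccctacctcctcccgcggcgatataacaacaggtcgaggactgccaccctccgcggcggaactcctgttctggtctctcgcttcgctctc
Krt23: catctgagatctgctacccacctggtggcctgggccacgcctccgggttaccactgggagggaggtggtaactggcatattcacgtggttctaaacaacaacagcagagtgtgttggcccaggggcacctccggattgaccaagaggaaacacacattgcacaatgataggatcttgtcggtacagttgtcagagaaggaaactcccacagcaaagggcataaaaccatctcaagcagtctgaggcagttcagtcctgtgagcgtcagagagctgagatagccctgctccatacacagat

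AGGTCA was found in the windows of Krt7, Krt20, Krt8 and Krt18 and not in that of Krt23. In Krt20 it begins 23 bases before the start and directly follows the TATA box TATAAA, which begins 29 bases before the start. In Krt7 it begins 16 bases after the start, in Krt18 at 108 and in Krt8 at 225 bases before it. The element is common: searched on both strands, it lay in 9 of 32 keratin genes (28.1%) and in 16.3% of all 32851 windows. The 9 genes include the uncalled Krt5, Krt13, Krt24, Krt42 and Krt78 besides those printed, so genes with the letters include risen and uncalled keratins alike. The longer SF-1 element CAAGGTCA, which contains AGGTCA, was in 0 keratin windows and 1.56% of all windows. TATAAA was in 18 of the 32 genes (56.3%) against 13.6% of all windows, and TGTTCT, a core element of progesterone and glucocorticoid receptor sites, in 8 (25.0%) against 19.0%. These matches describe letters, not binding.

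Squamous keratins showed no called change. Of 17 measured, limma called 0 at an adjusted p under 0.05 in either direction, where it called 16.6% of all genes. At an unadjusted p under 0.05 it gave 0 higher and 2 lower (Krt2 and Krt12), where 13.7% of all genes were higher and 18.4% lower. The median log2 change was -0.08. Most members were dim, with 12 of 17 below the median signal of all probe sets. Limma called 9.63% of all genes at such signal, and at an unadjusted p under 0.05 gave 563 of those 6545 higher and 881 lower. Without detection calls, weak expression and none cannot be told apart in these dim members. Krt16 and Krt17 with Krt14, and Krt6a with Krt6b, are close in sequence, so probes may read more than 1 of them.

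Krt5, the basal type II keratin, split the SF-1 arrays. It read 368, 368 and 347 in control and 291, 555 and 527 in SF-1. SF-1 replicates 2 and 3 lay above all control arrays and SF-1 replicate 1 below all of them. The log2 change was 0.28 (interval -0.20 to 0.75, limma adjusted p = 0.406). Without SF-1 replicate 1 it was 0.56 and called (adjusted p = 0.00824), so that array decides it.

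Krt15, a type I keratin of basal cells, read 65.0, 62.8 and 74.9 in control and 75.2, 83.4 and 456 in SF-1. The signal stood out in SF-1 replicate 3 alone, and the other SF-1 arrays lay barely above control. Its log2 change was 0.96 (interval -0.26 to 2.18, limma adjusted p = 0.264), and without SF-1 replicate 3 it was 0.19 (adjusted p = 0.287). Krt14, the usual basal partner of Krt5, read 57.4, 69.2 and 76.3 in control and 64.2, 64.7 and 97.2 in SF-1 on its brightest probe set, highest again in SF-1 replicate 3 (log2 change 0.11, interval from -0.22 to 0.45, limma adjusted p = 0.638). A second Krt14 probe set read 139 in that array and between 32.7 and 49.4 in the others, while its remaining probe set read 37.3 there, within the range of the other SF-1 arrays.

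SF-1 replicate 3 was over 2-fold above every other array for only 3 of 18193 genes, read on brightest probe sets with 16 units added. These genes were listed after the values were seen. They were Krt15, Col17a1, a collagen of the basal cell's attachment to its matrix, and Olfm4, a secreted glycoprotein gene of epithelia. Col17a1 read 115 there and between 33.7 and 46.9 elsewhere. Olfm4 read 1817 there, 673 and 603 in SF-1 replicates 1 and 2 and between 27.3 and 35.2 in control. Of 7 measured markers of squamous basal cells, Calml3 was called higher (log2 change 1.39) and Itgb4 lower (-0.44), or 28.6% against 16.6% of all genes. Of these 7, 6 lay below the median signal, where 9.63% of all genes were called. Calml3 read 78.3, 203 and 97.9 in SF-1 replicates 1 to 3 and between 32.5 and 38.0 in control. None of the 7 was at 0. Their summed level was 719.8 to 753 in control and 725 to 848 in SF-1. Trp63 read 129, 131 and 126 in SF-1 replicates 1 to 3, and its log2 change was -0.02 (limma adjusted p = 0.913; 0.04 after quantile normalization or median centring). The part of basal cells in the Krt15 value was not tested.

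**Figure D2:**
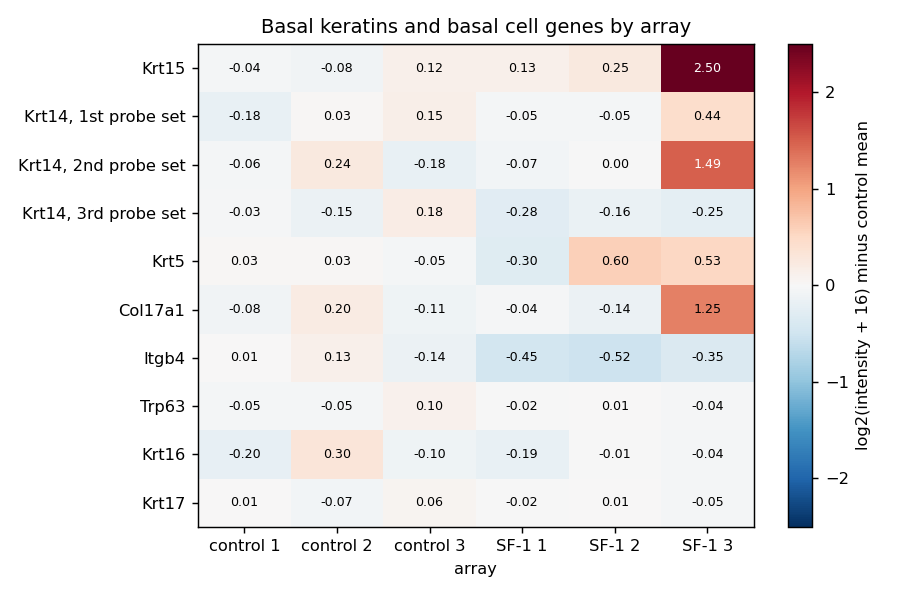
Basal keratins and genes of basal cells (rows) in each of the 6 arrays (columns), as log2(intensity + 16) minus the mean of the 3 control arrays; colour and printed number give the same value. Krt15 (2.50), a Krt14 probe set (1.49) and Col17a1 (1.25) are high in SF-1 replicate 3, where Trp63 is at -0.04.

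Krt10, Krt1, Krt4 and Krt13, keratins of differentiated squamous layers, were not called. Krt10, found in upper skin layers, read 481, 519.6 and 489.7 in control and 442, 423 and 473 in SF-1, lower in every SF-1 array by a small margin (log2 change -0.15, interval from -0.33 to 0.03, limma adjusted p = 0.238). Its partner Krt1 was dim, at 41.2 ± 6.93 and 38.9 ± 8.45 (SD, n = 3; log2 change -0.06, adjusted p = 0.771). Krt4 of moist linings read 211, 235 and 252 in control and 203, 207 and 193 in SF-1, also without overlap (log2 change -0.19, interval from -0.39 to 0.00, limma adjusted p = 0.176). Its partner Krt13 gave 78.9 ± 1.07 and 77.2 ± 7.60 (SD, n = 3; log2 change -0.03, adjusted p = 0.836), and the sign of that value turned with other scalings.

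The lowest log2 changes in the class were those of Krt12, a keratin of the cornea, and Krt2, a keratin of upper skin layers. Krt12 read 123, 133 and 127 in control and 93.3, 114 and 102 in SF-1 (log2 change -0.27, limma adjusted p = 0.0791). Krt2 read 13.3, 15.6 and 17.1 in control and 12.7, 8.86 and 6.63 in SF-1 (log2 change -0.31, adjusted p = 0.0847), and was called only without SF-1 replicate 1 (adjusted p = 0.0488). Neither gene overlapped between groups, but of all genes 39.9% did not overlap, and 23.7% of all genes did not overlap and were lower in SF-1. Among genes below the median signal, where Krt12 and Krt2 lay, these shares were 26.3% and 16.9%.

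Outside both classes, Krt80 and Krt23 fell. Krt80, a type II keratin found in many epithelia, read 375, 351 and 349 in control and 225, 267 and 243 in SF-1. All SF-1 arrays lay below all control arrays. The means were 358 ± 14.9 and 245 ± 20.9 (SD, n = 3), so the log2 scale gave -0.52 ± 0.09 (SE; limma adjusted p = 0.00479), and the call held without any 1 array (highest adjusted p = 0.0256). Krt23, a type I keratin, was dim and read 88.8, 95.8 and 86.4 in control and 77.0, 67.1 and 59.7 in SF-1 (log2 change -0.35 ± 0.09, SE; limma adjusted p = 0.0450). It did not overlap between groups either, but its call held in only 1 of the 6 fits that left out an array, the one without SF-1 replicate 1, and was lost after quantile normalization or median centring (-0.29, adjusted p = 0.102) and with 1 unit added (adjusted p = 0.0528).

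Hair keratins gave no call. Of 20 measured, limma called 0 at an adjusted p under 0.05, and 0 higher and 4 lower at an unadjusted p under 0.05, where 13.7% of all genes were higher and 18.4% lower. Their signal was low, with 19 of 20 below the median of all probe sets. Among the 6545 genes of such signal, 563 were higher and 881 lower at an unadjusted limma p under 0.05. In 19 of 20 the log2 change was below 0, with a median of -0.18. Groups did not overlap in 6 of 20, all lower in SF-1, against 23.7% of all genes and 16.9% of those below the median signal. Krt82, a hair keratin, was among these, at 101, 107 and 112 in control and 72.1, 100.2 and 91.3 in SF-1 (log2 change -0.25, adjusted p = 0.168). Krt71, a hair root sheath keratin, was called lower only without control replicate 1. The low edge was shared beyond this class. As deposited, 39 of all 48 keratins were below 0, against 60.6% of all genes and 64.8% of those below the median signal. After quantile normalization or median centring 35 keratins were below 0, with a keratin median log2 change of -0.08 under either scaling. The median of all genes was then -0.0155 after quantile normalization and -0.0023 after median centring. SF-1 replicate 1 had the lowest array median (149.9) and was the lowest array for 11 of 36 dim keratins and 23.9% of all genes. SF-1 replicate 3 was lowest for 10 of 36 and 14.9% of all genes. The part of array scaling in these small values was not tested.

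Over all 48 keratins, 2 were called higher and 3 lower, or 10.4%, against 16.6% of all genes. Among the 12 keratins at or above the median signal 3 were called, and among the 36 below it 2, where 20.5% and 9.63% of all genes of like signal were. Without 1 array, the lower calls numbered 1 without control replicate 3 or SF-1 replicate 3 and 2 without control replicate 1, control replicate 2 or SF-1 replicate 2. Rises numbered 3 without SF-1 replicate 1. Krt7, Krt20 and Krt80 were called in all 6 of these fits.

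**Figure D3:**
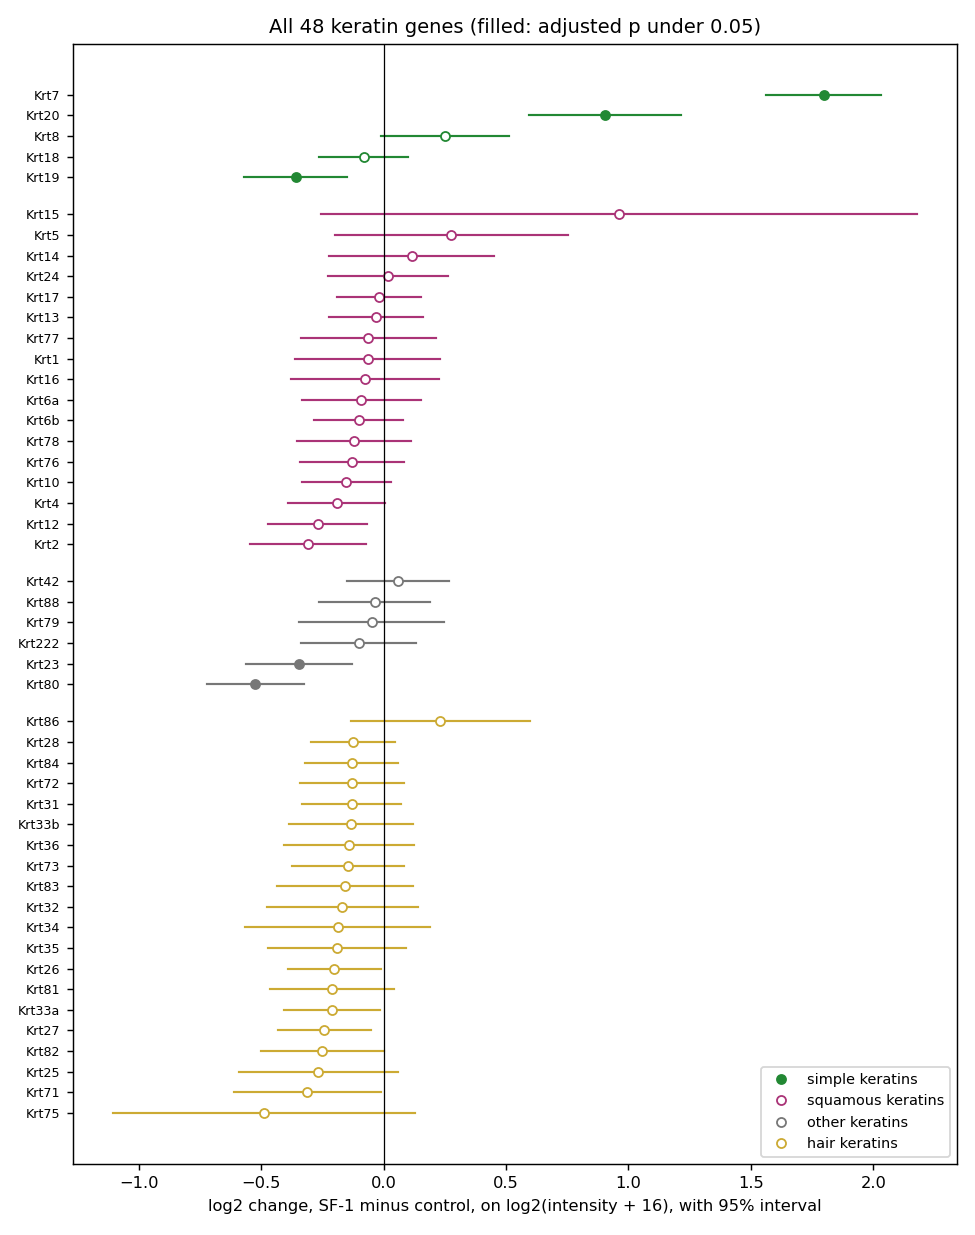
Log2 change from control to SF-1 (horizontal axis, on log2(intensity + 16)) with its 95% interval for all 48 keratin genes, grouped by class. Filled points passed an adjusted p under 0.05: Krt7, Krt20 and Krt19 among simple keratins and Krt23 and Krt80 among the others; no squamous or hair keratin did. The interval of Krt15 is wide, from -0.26 to 2.18.

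Neighbouring keratin genes changed in opposite directions at 2 places. In the type II cluster, Krt7 (1.80) and Krt80 (-0.52) are next to each other with 0 protein-coding genes between them and moved in opposite directions. Krt20 (0.90) and Krt23 (-0.35), also adjacent, did so in the type I cluster. Krt19 (-0.36) lies beside Krt15, the gene raised in SF-1 replicate 3. Of 24 measured genes in the type I cluster, 1 rose and 2 fell, with a median log2 change of -0.14. Of 24 in the type II cluster, Krt18 included, 1 rose and 1 fell, with a median of -0.13. The shares called were 12.5% in the type I and 8.33% in the type II cluster, against 16.6% of all genes.

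**Figure D4:**
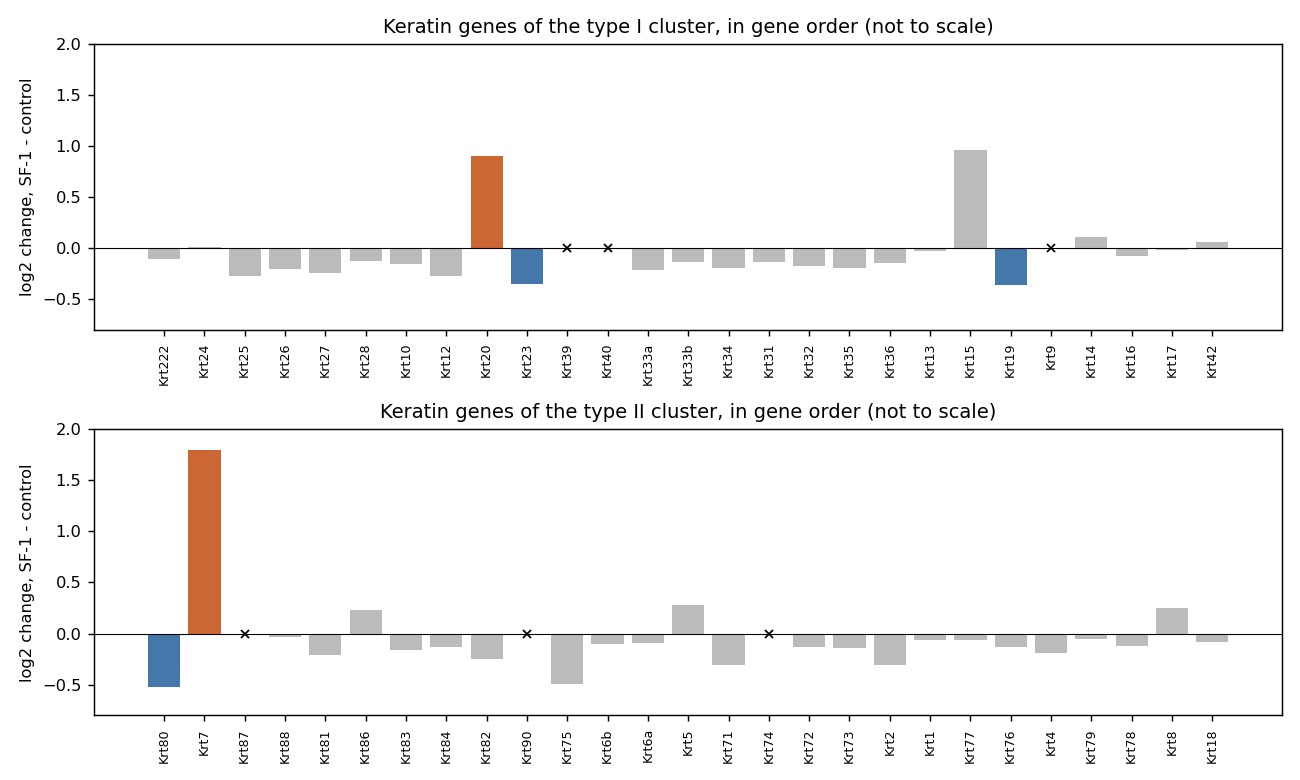
Log2 change of each keratin gene in the type I and type II clusters, in the order of the genes along the chromosome and not to scale. Orange and blue bars were called higher and lower, grey bars were not called, and crosses mark genes not analysed here. Risen Krt7 stands beside fallen Krt80, and risen Krt20 beside fallen Krt23.

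Genes that tie keratin filaments to junctions moved in part. Of 23 measured genes of desmosomes, hemidesmosomes and keratin linkers, 5 rose, 1 fell and 17 were not called. Limma called 26.1% of them, against 16.6% of all genes. At or above the median signal, where 18 of the 23 lay, it called 20.5% of all genes. Their median log2 change was 0.12 against -0.05 for all genes. Eppk1, which encodes the keratin-binding epiplakin, rose from 379 ± 20.1 to 938 ± 117 (SD, n = 3; log2 change 1.26, limma adjusted p = 0.000113). Dsp, encoding desmoplakin, the protein that anchors keratin at desmosomes, read 1952, 1881 and 1697 in control and 4037, 3195 and 3838 in SF-1 (0.99, adjusted p = 0.000492). The desmosomal cadherin gene Dsg2 rose by 1.12 (adjusted p = 0.00581), or by 0.50 with the mean of its probe sets (adjusted p = 0.00289). Itgb4, the integrin subunit that binds keratin through hemidesmosomes, fell by 0.44 on the log2 scale (adjusted p = 0.0158). Its call missed the threshold when control replicate 1, SF-1 replicate 1 or SF-1 replicate 2 was left out (highest adjusted p = 0.0585). Itga6, another integrin subunit gene of the list, was called higher (log2 change 0.62, limma adjusted p = 0.00208). Jup, a core desmosome gene, gave 0.02 (interval from -0.21 to 0.25).

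The cornified envelope, the protein shell of dying squamous cells, was represented by 23 genes, of which 5 rose, 0 fell and 18 were not called. Limma called 21.7% of these, against 16.6% of all genes and 9.63% of genes below the median signal, where 18 of the 23 lay. Their median log2 change was -0.04. Sprr2f, an estrogen-responsive gene of uterine epithelium, rose from 66.7 ± 7.0 to 1231 ± 277 (SD, n = 3; 3.89, limma adjusted p = 4.57e-06). Dmkn, a secreted epithelial protein gene, rose from 38.7 ± 8.43 to 531 ± 138 (3.30, adjusted p = 1.92e-05). With 64 units added in place of 16, these changes were 3.29 for Sprr2f and 2.51 for Dmkn, both still called. Sprr2d rose by 2.43 (adjusted p = 0.0438), but read 113, 1276 and 356 in the SF-1 arrays, and its call was lost in 4 of the 6 fits without an array (without any control replicate or SF-1 replicate 3, highest adjusted p = 0.102). Its change was 3.24 without SF-1 replicate 1 and 1.58 without SF-1 replicate 2, and the call was also lost with trend and robust moderation (adjusted p = 0.178), the mean of probe sets (0.0511) and 1 or 64 units added (0.0602 and 0.0560). The other called members were Tchh (0.63) and Tgm1 (0.29). Tgm1 encodes a transglutaminase of keratinocytes and Tchh a protein of the hair root sheath. Of the 18 members not called, Ivl, Lor and Flg were picked after their values were seen. Ivl, encoding involucrin, gave 0.08 (interval from -0.17 to 0.33) and Lor, encoding loricrin, -0.19 (from -0.51 to 0.12). Flg, encoding filaggrin, gave -0.04 at intensities under 10. The 5 became 2 without control replicate 1, control replicate 3 or SF-1 replicate 3, 3 without SF-1 replicate 1 and 4 without control replicate 2 or SF-1 replicate 2.

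Genes of epithelial identity leaned higher, as 7 of 17 rose and 0 fell, with a median log2 change of 0.26. The share called was 41.2%, against 16.6% of all genes and 20.5% of those at or above the median signal, where all 17 lay. Muc1, a cell surface mucin gene, rose most, by 1.93 (limma adjusted p = 0.000113). Cdh1, encoding E-cadherin, rose from 2380 ± 305 to 3890 ± 284 (SD, n = 3; 0.71, adjusted p = 0.00361), and the claudin gene Cldn4 by 0.71 (adjusted p = 0.0358), which missed the threshold when control replicate 1 or 3 or SF-1 replicate 1 or 2 was left out, or with 1 unit added (adjusted p = 0.0564). Epcam read 2973, 2828 and 2893 in control and 3936, 3802 and 3569.7 in SF-1 (0.38, adjusted p = 0.0131). The call of Epcam was lost without SF-1 replicate 1 (adjusted p = 0.0541) and with the mean of its probe sets, where the change was 0.16 (adjusted p = 0.176). The summed level of the 17 genes was 20951 to 22178 in control and 25822 to 28216 in SF-1. The median of 0.26 stands beside changes of 1.80 in Krt7, 0.90 in Krt20, 0.25 in Krt8, -0.08 in Krt18 and -0.36 in Krt19, and the part of the list's summed level in the keratin values was not tested. The count of 7 was 4 without control replicate 1, control replicate 3 or SF-1 replicate 2 and 3 without SF-1 replicate 1.

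Other intermediate filament genes, which serve stroma, muscle, nerve and the nuclear lamina, gave 1 rise and 1 fall among 17. That share was 11.8%, against 16.6% of all genes. Iffo2, an intermediate filament family gene, rose by 0.71 (limma adjusted p = 0.00147), and Nes, encoding nestin, fell by 0.43 on the log2 scale (adjusted p = 0.0395), which missed the threshold when control replicate 1 or 2 or SF-1 replicate 1 or 3 was left out (highest adjusted p = 0.132), with the mean of probe sets (0.0526) or with 1 unit added (0.0576). Vim, encoding vimentin of stromal cells, gave -0.02 (interval from -0.21 to 0.17; 0.03 after median centring), and Des, encoding desmin of muscle and stroma, -0.27 (from -0.49 to -0.06, adjusted p = 0.0906).

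**Figure D5:**
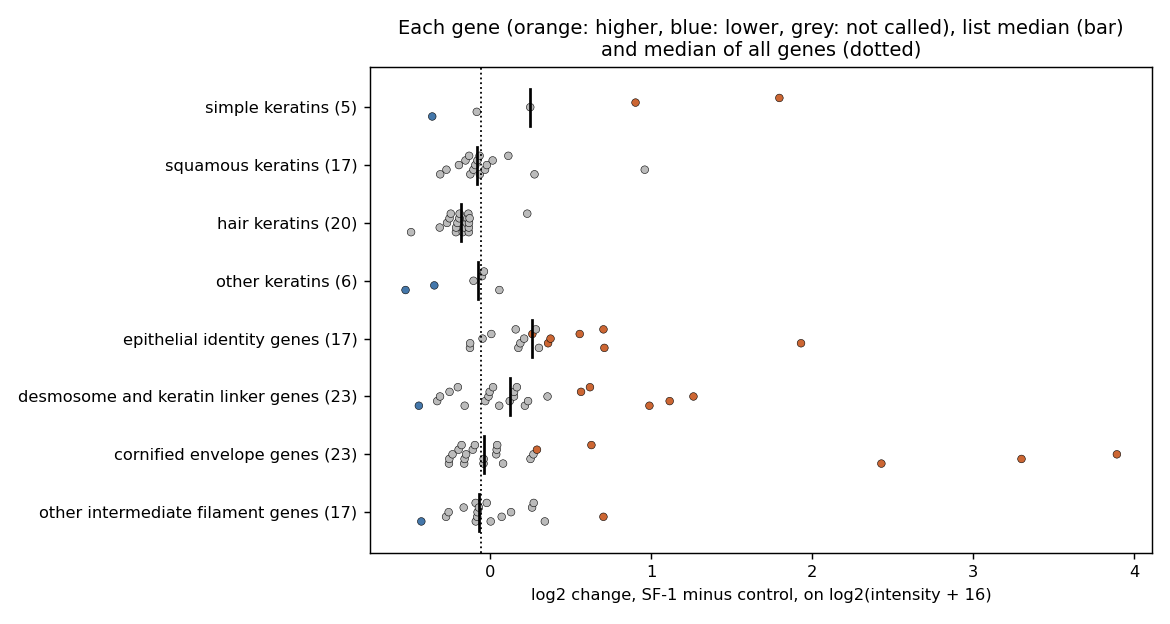
Log2 change (horizontal axis) of every measured gene in the 4 keratin classes and 4 related lists, with the number of genes in brackets. Orange and blue points were called higher and lower, bars are list medians and the dotted line is the median of all genes (-0.05). Simple keratins (median 0.25) and epithelial identity genes (0.26) lie to its right, hair keratins (-0.18) to its left.

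Other cells of the uterus carry simple keratins too. Of 8 genes listed as markers of mesothelium, the outer lining of the organ, limma called 0, against 16.6% of all genes. At an unadjusted p under 0.05 it gave 0 in either direction. Their summed level was 4081 to 4527 in control and 4685 to 4916 in SF-1 with none at 0. Wt1 alone made up most of that sum (means of 2412 in control and 2689 in SF-1). Which cells of the horn gave the Wt1 signal was not tested. Of 8 ciliated cell markers 7 rose and 0 fell, or 87.5% called against 16.6% of all genes. Their summed level went from 1259 to 1341 in control to 6215 to 9793 in SF-1. Of 8 genes listed as uterine gland markers, Foxa2 rose (0.80), Cxcl15 and Sox17 fell and 5 were not called, or 37.5% called. The summed level went from 5918 to 6317 in control down to 3261 to 3709.6 in SF-1. Sox17 alone made up most of that sum (means of 4217 in control and 2025 in SF-1), so the fall of the sum mostly follows that gene. Which cells of the horn gave the Sox17 signal was not tested. The part of ciliated, gland or mesothelial cells in the keratin values was not tested.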

How the data were processed

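The authors deposited 1 linear intensity per probe set and array, from a 1-colour Affymetrix mouse array per the labels. The software, background correction and summarization are not given in the sources used here. Unstated background handling affects dim probe sets most. Controls of the array maker (64) were left out, and 45037 probe sets were tested. A platform annotation gave 34945 of them 1 symbol, 932 several and 9160 none. Only probe sets with 1 symbol were named.

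After adding 16 units and taking log2, a linear model was fitted to each probe set (limma 3.58.1, R 4.3.3), with Benjamini-Hochberg adjustment over all probe sets. Tables were made with pandas 2.3.3 in Python 3.11.15. Simulated arrays served to test it. With 3 arrays a group precision is limited; a typical probe set had an SD of 0.108 in control and 0.100 in SF-1 on the log2 scale (median). Keratin classes, lists and the naming rule were chosen with earlier results of these data known. Named were the simple keratins, called keratins, Krt1, Krt4, Krt5, Krt10, Krt13 and Krt14, the 4 further keratins with non-overlapping groups and the largest change, and up to 3 called genes a direction from each list, with Epcam, Cdh1, Trp63, Vim and Des. Other genes were named after their values were seen. Replicate numbers were not taken as pairs in the main fit. Deviations of same-numbered arrays correlated at -0.06, -0.10 and -0.18, which with 3 arrays a group cannot exclude shared processing. Alternatives were other scalings, filters, pseudocounts, weights, thresholds, the replicate block and each array left out.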

Additional observations from a re-analysis of the deposited data

How the results depend on the processing

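The risen Krt7 and Krt20 and the fallen Krt80 kept their direction in every alternative that tested them; Krt20 is too dim for the test of brighter probe sets only. Fallen keratins numbered 3 as reported, 1 after median centring, with pseudocount 1, with the replicate block or at an adjusted p under 0.01, and 0 with a fold of at least 1.5; fallen simple keratins numbered 0 in each of these. Of brighter probe sets only, which test 12 keratins, 1 rose. Without 1 array, rises ranged from 2 to 3 and falls from 1 to 3 for all keratins, rises from 2 to 2 and falls from 0 to 1 for simple ones, and both from 0 to 1 for squamous ones. For linker genes, rises were 5 in each fit and falls 0 to 1 without 1 array, 0 with the replicate block, the fold limit or the stricter p, and 2 with brighter probe sets, trend and robust, array weights, the mean of probe sets or pseudocount 64. Risen envelope genes ranged from 2 to 4 without 1 array, and were 1 in brighter probe sets, 3 with the block, trend and robust, the mean of probe sets or pseudocount 1, and 2 at the stricter p. Risen epithelial identity genes ranged from 3 to 7 and were 3 with the fold limit or the stricter p. Fallen other filament genes ranged from 0 to 1, were 2 with trend and robust and 0 with the mean of probe sets, pseudocount 1, the fold limit or the stricter p, and 2 rose with the mean of probe sets.

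The replicate block changed no other count by over 1.5 times. Changes near 0 and not called turned sign: Krt13 (0.0207 after quantile normalization, 0.0209 after median centring, 0.0137 with the mean of probe sets, -0.0785 to 0.0369 without 1 array), Trp63 (0.0404 after quantile normalization, 0.0356 after median centring, -0.0424 to 0.0352 without 1 array), Vim (0.0314 after median centring, -0.0572 to 0.0357 without 1 array), Krt1 (-0.186 to 0.0251 without 1 array) and Krt14 (-0.0502 to 0.199 without 1 array). Of the within-array differences, Krt8 minus Epcam turned to 0.10 with the mean of probe sets. The cause was not tested. Of 549 values of named genes under alternatives, 480 kept direction and call, 54 lost a call, 3 gained one and 12 turned sign. Signal near background limits the dim keratins.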

Other observations

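Krt75, a keratin of the hair follicle, read 271 in control replicate 2; its remaining arrays lay between 85.7 and 135. Its log2 change, at -0.49 the lowest of the hair keratins, was not called (interval -1.11 to 0.13, limma adjusted p = 0.261).

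The probe set annotated to both Krt17 and Krt14, which is in no count above, gave 81.2 ± 7.35 in control and 73.1 ± 7.64 in SF-1 (SD, n = 3; log2 change -0.13, limma adjusted p = 0.410). It read lowest in SF-1 replicate 3, at 64.9, the array in which a Krt14 probe set read highest.

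Control replicate 3 was the highest array for 22 of the 48 keratins and the lowest for 0.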
